A study of Mus musculus with 4 samples.

Results

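The replication-dependent histone genes were taken as the protein-coding genes of GENCODE vM21 whose symbols begin with Hist1h, Hist2h, Hist3h or Hist4. The rule found 67 of 21938 protein-coding genes, namely 6 H1, 18 H2A, 18 H2B, 12 H3 and 13 H4 genes. The rule reads the gene symbol alone and no value of the ChIP-seq experiment, although the set was proposed with earlier results of these data known. All 67 are carried through the results, with or without a peak.

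The study asked where Pontin (Ruvbl1), an ATPase subunit of chromatin remodelling complexes, sits on the genome once it has been arginine methylated by CARM1. The values come from 1 library, a ChIP with an antibody to methylated Pontin in mouse embryonic fibroblasts (MEFs) under glucose starvation. Of the 4 libraries of the series, the others are the same ChIP in normal media and an input for either medium, each without a replicate. An input entered only through the authors' peak calling, their folds over input and their scaled tag count. The other libraries were not compared here in any further way, and no test over samples could be made. The study describes the MEFs of this experiment as wild type, and the labels name no strain or starvation time. The library held 20765512 tags, and the authors called 4311 peaks, each 481 bp wide, on the mouse build GRCm38 (mm10). A region absent from the list was not called a peak, which does not show that Pontin was absent there. Intervals given below cover counting error only.

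Replication-dependent histone genes supply the H1 linker and the H2A, H2B, H3 and H4 core histones that package newly made DNA, and their transcription is tied to S phase. They lie in clusters, are short and mostly without introns, and H2A and H2B genes often stand head to head over a shared promoter. Their mRNAs end not in a poly(A) tail but in a conserved stem-loop, which is bound by SLBP and processed with the U7 snRNP.

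The sequence around the peaks and promoters is shown first because the position and composition of the peaks carry the results. These are the central 200 bases of the peak upstream of Hist1h3e (chr13:23562894-23563093), of the peak between Hist1h3c and Hist1h2bb (chr13:23745822-23746021) and of the peak upstream of Hist2h3b (chr3:96267706-96267905), all GRCm38, plus strand. Capitals mark any of the promoter motifs listed with the promoter sequences.
Hist1h3e upstream peak: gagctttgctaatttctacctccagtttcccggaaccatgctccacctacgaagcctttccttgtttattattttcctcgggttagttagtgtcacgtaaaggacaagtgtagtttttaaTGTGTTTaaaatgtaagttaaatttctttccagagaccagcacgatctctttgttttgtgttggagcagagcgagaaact
Hist1h3c and Hist1h2bb peak: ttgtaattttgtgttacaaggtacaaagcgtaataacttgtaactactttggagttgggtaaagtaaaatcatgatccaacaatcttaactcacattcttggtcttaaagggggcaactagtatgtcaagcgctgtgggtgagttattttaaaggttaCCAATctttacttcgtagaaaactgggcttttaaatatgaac
Hist2h3b upstream peak: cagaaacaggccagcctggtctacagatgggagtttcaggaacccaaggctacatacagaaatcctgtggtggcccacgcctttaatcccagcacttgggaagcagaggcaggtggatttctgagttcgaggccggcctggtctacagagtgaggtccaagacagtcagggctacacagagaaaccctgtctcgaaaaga
The Hist1h3e peak held AAACACA on the minus strand and the Hist1h3c and Hist1h2bb peak held CCAAT, while none of the motifs lay in the centre of the Hist2h3b peak. The latter was the peak with the largest share of soft-masked bases among the 4 promoter peaks of histone genes, 46.6% over its whole width.

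The promoters of 2 H3 genes and of 1 H2B gene with a peak are given for comparison, each as the 250 bases before the gene start and in the direction of the gene. They lie on GRCm38 at chr13:23562370-23562619 (minus strand, Hist1h3e), chr13:23745603-23745852 (minus strand, Hist1h3c) and chr3:96220869-96221118 (plus strand, Hist2h2be). Capitals mark the TATA box TATAAA, the CCAAT box CCAAT, the octamer ATTTGCAT of H2A and H2B promoters, the H1 box AAACACA, the H4 site II core GGTCCG, the E2F1 7-mer GCGGGAA and the FOXO3a 7-mer GTAAACA, on either strand. None of these motifs contains another, although AAACACA and GTAAACA can share letters where they follow each other.
Hist1h3e promoter: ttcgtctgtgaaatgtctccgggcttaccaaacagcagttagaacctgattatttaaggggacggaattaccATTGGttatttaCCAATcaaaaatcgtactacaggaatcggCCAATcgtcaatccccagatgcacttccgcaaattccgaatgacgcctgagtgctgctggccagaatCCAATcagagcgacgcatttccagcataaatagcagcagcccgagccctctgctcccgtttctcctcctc
Hist1h3c promoter: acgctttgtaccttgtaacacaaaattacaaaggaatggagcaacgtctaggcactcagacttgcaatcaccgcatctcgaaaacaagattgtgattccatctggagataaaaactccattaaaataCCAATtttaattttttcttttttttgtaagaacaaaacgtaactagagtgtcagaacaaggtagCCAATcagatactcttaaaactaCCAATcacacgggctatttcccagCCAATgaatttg
Hist2h2be promoter: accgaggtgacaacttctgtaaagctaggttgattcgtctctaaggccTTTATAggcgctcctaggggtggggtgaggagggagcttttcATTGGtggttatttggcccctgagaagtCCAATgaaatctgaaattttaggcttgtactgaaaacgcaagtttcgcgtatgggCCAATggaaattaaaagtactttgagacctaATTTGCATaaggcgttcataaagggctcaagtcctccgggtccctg
The H3 promoters carried repeated CCAAT boxes, and the Hist2h2be promoter joined CCAAT boxes to an octamer. The Hist2h2be sequence is also most of the promoter of Hist2h2ac, which starts 238 bp away in the other direction.

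A gene was counted as having a peak when the centre of a peak lay within 2.5 kb of any of its transcription start sites (TSS). By this rule 8 of the 67 histone genes had a peak (11.9%, Wilson 95% interval 6.18 to 21.8%), against 17.1% of all protein-coding genes. The 8 genes shared 4 peaks, so the gene count overstates the number of separate binding sites. The histone share lay below the share of all genes, but its interval contained that share.

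The 8 genes were Hist1h3e, Hist1h3c, Hist1h2bb, Hist2h2ab, Hist2h2ac, Hist2h2be, Hist2h3b and Hist2h2bb, of which 3 encode H3, 3 H2B and 2 H2A. Within 1 kb there were 7 genes with a peak, where 16.2% of all protein-coding genes had one, and within 5 kb there were 9, where 18.2% had one. With peaks at least 8-fold over input 3 histone genes were left (9.93% of all genes). When each peak was counted only for the protein-coding gene with the nearest TSS, 4 histone genes were left (14.4% of all genes).

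Genes of like GC content gave different levels depending on the window in which GC content was taken. Over 1 kb at the gene start the histone genes had a median GC content of 53.7%, the other protein-coding genes had 54.8%, and other genes of the same GC content had a peak in 18.3% of cases. Over 300 bases at the gene start the medians were 45.3% and 55.0%, and genes of the same GC content had a peak in 11.2% of cases. The histone share of 11.9% was therefore below the first level and near the second, and its interval contained both. Histone genes stood closer together than other genes, with a median of 3 other protein-coding gene starts within 10 kb against 0. Of the genes of like GC content over 1 kb, those with at least 1 such neighbour had a peak in 21.9% of cases and those with at least 3 in 19.5%. The first of these values lay just above the upper end of the histone interval, 21.8%, and the second within it. That interval counts each gene as separate, although the 8 histone genes with a peak shared 4 peaks. It is therefore too narrow to set the histone genes apart from either level.

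**Figure D1:**
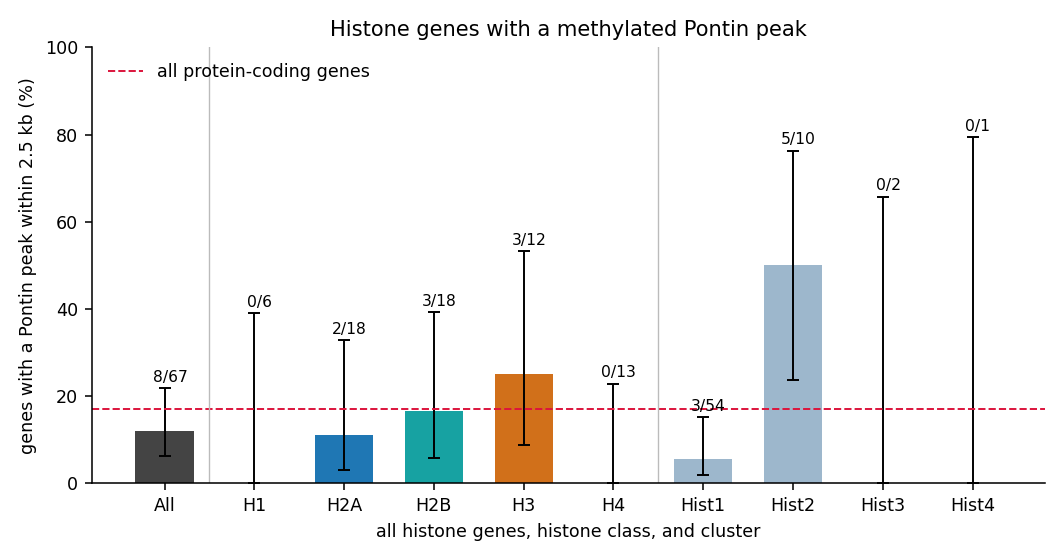
Share of histone genes with a methylated Pontin peak centre within 2.5 kb of a TSS, in percent, for all 67 genes, for each histone class and for each cluster; bars give the share, error bars the 95% Wilson interval and the numbers above them the genes with a peak over all genes. The dashed line is the share of all protein-coding genes, 17.1%. The Hist1 interval ends at 15.1% and the Hist2 interval starts at 23.7%, and all other intervals contain the line. The intervals count each gene as separate, although the 3 Hist1 genes with a peak came from 2 peaks and the 5 of Hist2 from 2. They are therefore too narrow to set these clusters apart.

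H1 genes encode the linker histones that bind DNA between nucleosomes. None of the 6 had a peak (Wilson 95% interval up to 39.0%), and the limit that a count of 0 allows, taken as 3 genes of 6, was 50%. Their nearest peaks lay 7.11 kb from Hist1h1c, 9.73 kb from Hist1h1d, 17.7 kb from Hist1h1a, 50.1 kb from the testis gene Hist1h1t, 59.6 kb from Hist1h1e and 194 kb from Hist1h1b. With 6 genes, the H1 class could not be told apart from all protein-coding genes.

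H2A and H2B form the dimers on the flanks of the nucleosome. A peak was found at 2 of 18 H2A genes (11.1%, 3.10 to 32.8%) and at 3 of 18 H2B genes (16.7%, 5.84 to 39.2%). The H2A genes Hist2h2ab and Hist2h2ac shared 1 peak, whose centre lay 425 bp and 590 bp downstream of their starts. The H2B genes drew on 3 peaks, 829 bp upstream of Hist2h2be, 812 bp upstream of Hist1h2bb and 1946 bp upstream of Hist2h2bb. All 3 of these peaks lay nearer to the start of another histone gene.

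No peak was called in the shared promoters of H2A and H2B genes, but their number is too small to set them apart. There were 12 pairs of neighbouring H2A and H2B genes that stood head to head with at most 500 bp between their starts, with gaps from 175 to 305 bp and a median of 258.5 bp. In none of the 12 did a peak overlap the gap (Wilson interval up to 24.2%, limit of 3 pairs of 12 25%). Among 615 such pairs of other protein-coding genes a peak overlapped the gap in 113 (18.4%), a share that the interval contained. The 0 includes the pair Hist2h2ac and Hist2h2be, both counted as having a peak.

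H3 pairs with H4 in the tetramer at the centre of the nucleosome. The H3 class had the highest share, 3 of 12 genes (25%, 8.89 to 53.2%), from 3 different peaks, of which those at Hist1h3c and Hist2h3b were shared with an H2B gene. The peak centres lay 320 bp upstream of Hist1h3c, 625 bp upstream of Hist1h3e and 848 bp upstream of Hist2h3b. The interval contained the share of all genes and overlapped those of the other classes. The class share dropped to 0 with peaks at least 8-fold over input.

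None of the 13 H4 genes had a peak. Both the Wilson interval, up to 22.8%, and the limit of 3 genes of 13, 23.1%, reached above the 17.1% of all genes. Hist2h4 came nearest, at 4.50 kb, followed by Hist1h4b at 11.1 kb, Hist1h4f at 11.3 kb, Hist1h4a at 15.3 kb and Hist1h4d at 18.6 kb. At the far end were Hist1h4n at 142 kb, Hist1h4m at 163 kb, Hist1h4j at 204 kb and Hist1h4k at 219.5 kb. H3 and H4 genes often neighbour each other in these clusters, and Hist2h3b and Hist2h4 had the same nearest peak at 848 bp and 4495 bp.

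**Figure D2:**
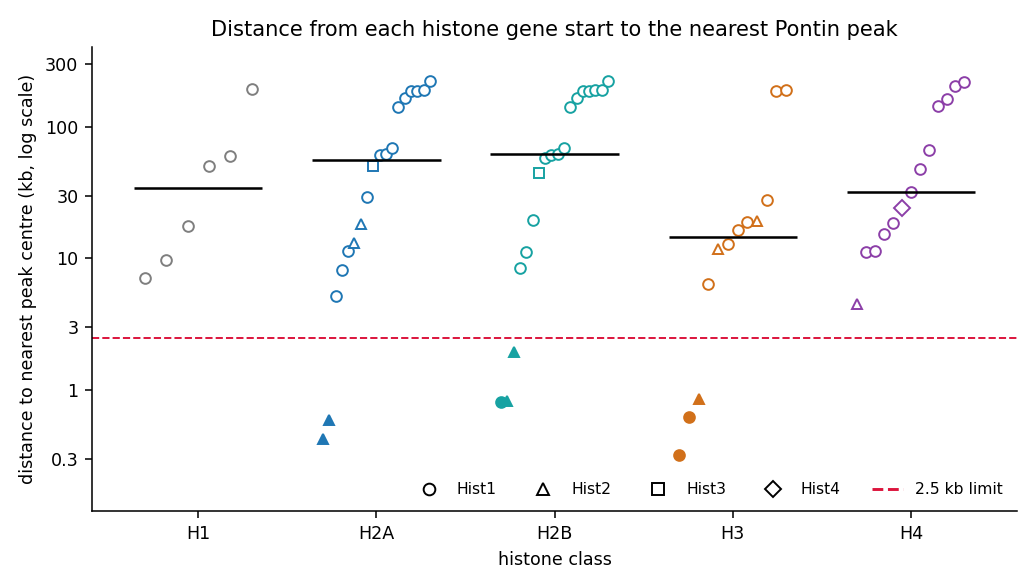
Distance in kb, on a log scale, from the start sites of each of the 67 histone genes to the nearest methylated Pontin peak centre, by histone class. Symbols give the cluster, filled symbols are genes with a peak, black lines are class medians and the dashed line is the 2.5 kb limit. The H3 median, 14.6 kb, is the lowest and the H2B median, 61.5 kb, the highest. Neighbouring genes mostly have the same nearest peak, so the points are not separate observations and the medians do not set the classes apart.

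Over all histone genes the median distance to the nearest peak was 31.9 kb, against 88.0 kb for the other protein-coding genes. Neighbouring histone genes mostly had the same nearest peak, so their distances are not separate observations and the medians rest on few peaks. The shares within 10 kb were much closer, with 15 histone genes (22.4%) against 21.2% of other genes. At the limit itself, the last genes inside were Hist2h3b at 848 bp and Hist2h2bb at 1946 bp, and the first outside were Hist2h4 at 4495 bp and Hist1h2ab at 5204 bp. No histone gene lay between 1946 and 4495 bp, so a limit anywhere in this interval gives the same 8 genes.

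The clusters differed more than the classes. Hist1 on chromosome 13 (chr13:21715763-23934851) held 54 histone genes, of which 3 had a peak (5.56%, 1.91 to 15.1%). Hist2 on chromosome 3 (chr3:96219865-96270132) held 10, of which 5 had a peak (50%, 23.7 to 76.3%). Of the 5 Hist2 genes without a peak, Hist2h3c2, Hist2h2aa2, Hist2h2aa1 and Hist2h3c1 had promoters of mostly repeated sequence, described below. Each of these clusters owed its genes to 2 peaks, which in Hist2 were spread over 5 genes, so the genes of Hist2 are not separate observations. The 2 genes of Hist3 on chromosome 11 and Hist4h4 on chromosome 6 had none, with nearest peaks 44.8 kb, 50.6 kb and 24.2 kb away.

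Counted by length, Hist2 held 3 peaks in 50.3 kb, or 59.7 per Mb, and Hist1 held 3 in 2219 kb, or 1.35 per Mb, against 1.58 per Mb over all chromosomes. Per protein-coding gene the values were 0.30 in Hist2, 0.0291 in Hist1 and 0.197 over all chromosomes. The Hist1 span also held 49 other protein-coding genes, and none of these 49 had a peak. Most of the span lay between the 4 groups of histone genes described below, which covered 122, 8.51, 233 and 1.08 kb. Inside the third group lay 1 of the 49 genes, and inside the other groups none. The values over the Hist1 span therefore describe mostly the DNA between the groups.

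Within Hist1, gaps of over 100 kb separated 4 groups of histone genes. The first group (18 genes) held 0 genes with a peak, with a Wilson interval up to 17.6%, which contained the 17.1% of all genes, and a limit of 16.7% from 3 genes of 18. In this group Hist1h2bq, Hist1h2ao, Hist1h4m, Hist1h4n, Hist1h2ap and Hist1h2br had promoters of mostly repeated sequence, described below. The interval and the limit count these genes like the others. The second group (5 genes) and the fourth (2 genes, Hist1h2ba and Hist1h2aa) held 0 as well. All 3 Hist1 genes with a peak belonged to the third group of 29 genes (10.3%, 3.58 to 26.4%), which had 8.57 peaks per Mb in 233 kb. The 20 histone genes over 100 kb from a peak were those of the first and the fourth group.

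**Figure D3:**
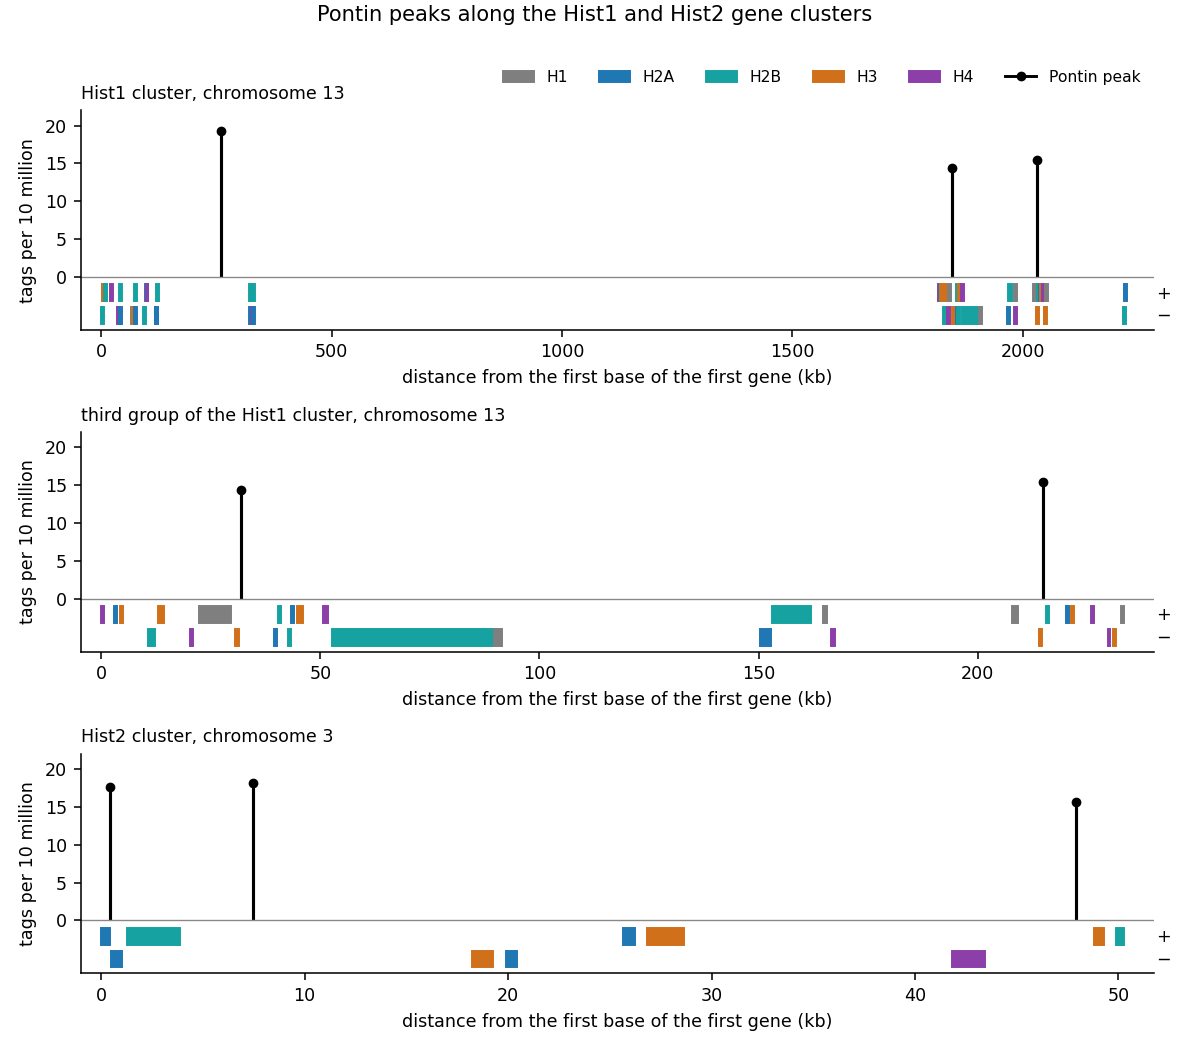
Methylated Pontin peaks along the whole Hist1 cluster, the third group of Hist1 and the Hist2 cluster. The horizontal axes give the distance in kb from the first base of the first gene, vertical lines with dots are peaks with their height in tags per 10000000, and boxes are histone genes coloured by class, on the plus strand above and the minus strand below; very short genes are drawn wider than their length. Peaks stand at 3 places in each cluster, and the first group of Hist1 has none.

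The peak at Hist1h3e (chr13:23562754-23563234) had a normalised tag count of 14.4 tags per 10000000, about 29.9 tags of this library (Poisson 95% interval 20.2 to 42.7). It was 4.67-fold over input and 5.19-fold over the surrounding 10 kb. It was intergenic, and Hist1h3e was the only protein-coding gene within 2.5 kb. Its fold over input was among the lowest of the list, above 8.397% of all peaks.

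The peak between Hist1h3c and Hist1h2bb (chr13:23745682-23746162) had 15.4 tags per 10000000, about 32.0 tags (21.9 to 45.1). It was 7.97-fold over input and 4.89-fold over the surrounding region. These genes stand head to head 1131 bp apart, and the peak centre lay in the gap, nearer to Hist1h3c. The annotated TSS nearest to the centre, at 253 bp, was that of the miRNA gene Gm44314. This was the most AT-rich of the 4 peaks, with a GC content of 35.97%.

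The peak at the start of Hist2 (chr3:96220050-96220530) had 17.6 tags per 10000000, about 36.5 tags (25.7 to 50.5), 22.74-fold over input and 4.88-fold over the surrounding region. Its centre was in the coding exon of Hist2h2ab and it overlapped both Hist2h2ab and Hist2h2ac, which meet tail to tail with 52 bp between their annotated ends. It covered no histone gene start, and Bola1 was a further protein-coding gene within 2.5 kb. The nearest annotated TSS, at 122 bp, belonged to the antisense gene Gm15444. It was the only promoter peak of histone genes at least 8-fold over input.

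Because this peak lay at gene ends, the stem-loops were located in it. The motif, GGNNCTTTT followed at once by NAGNNCC, was searched on both strands. Both stem-loops of the gene pair were inside the peak, that of Hist2h2ab at chr3:96220333-96220348 (plus strand, just past the annotated gene end) and that of Hist2h2ac at chr3:96220418-96220433 (minus strand), 43 bp and 128 bp from the peak centre. They are printed with the commonest form, carried by 38 genes, to show the base of the loop in which they differ.
Hist2h2ab stem-loop: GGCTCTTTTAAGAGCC
Hist2h2ac stem-loop: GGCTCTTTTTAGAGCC
commonest stem-loop: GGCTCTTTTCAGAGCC
The motif occurred within 150 bases after the stop codon in 60 of 67 histone genes, in 6 forms, and in 7 of the 8 genes with a peak; Hist2h2be was the one without it. Of the 4311 peaks, 2 held the motif (0.0464%), and none of the 3209 promoter peaks of other protein-coding genes did.

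The peak upstream of Hist2h3b (chr3:96267566-96268046) had 15.7 tags per 10000000, about 32.6 tags (22.4 to 45.9), 6.75-fold over input and 4.19-fold over the surrounding region. It lay in an exon of the antisense gene Gm20628, 848 bp upstream of Hist2h3b and 1946 bp upstream of Hist2h2bb. Its fold over the surrounding region was above 11.7% of all peaks.

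The remaining peaks in the spans were at no histone gene, and both were higher than the 4 promoter peaks. One lay in Hist2 (chr3:96227066-96227546), intergenic and 6.19 kb from the start of Hist2h2be, with 18.1 tags per 10000000, 23.36-fold over input and 6.45-fold over the surrounding region. The other lay in Hist1 (chr13:21974386-21974866), intergenic, 60.9 kb from Hist1h2ah and 6.57 kb from Pom121l2, with 19.3 tags per 10000000 and 9.97-fold over input. The latter was 9.96-fold over the surrounding region, above 99.5% of all peaks.

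The 4 promoter peaks of histone genes were of ordinary height. Their tag counts of 14.4 to 17.6 per 10000000 (median 15.55) all lay between the quartiles of the 3209 promoter peaks of other protein-coding genes, 12.5 and 17.8 (median 14.9). The median fold over input was 7.36 (4.67 to 22.74) against 9.10, and the median fold over the surrounding region was 4.89 (4.19 to 5.19) against 5.01. A median of 4 peaks has its whole range as its interval, so no difference in signal was detectable.

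Place and composition stood further from the other promoter peaks. None of the 4 covered a protein-coding TSS, whereas 48.1% of the other promoter peaks did, and the 4 centres lay 320 to 848 bp from the nearest such TSS (median 525 bp) against a median of 251 bp. A distance of at least 320 bp was found in 39.8% of other promoter peaks. The GC content of the 4 was 35.97 to 54.7% (median 42.3%) against a median of 56.3%, with 3 of them below the lower quartile of 48.4%. Soft-masked bases, the repeats marked in the assembly, made up 4.57, 7.07, 34.9 and 46.6% of the 4 peaks against a median of 6.24%. With 4 peaks in 1 library, these are descriptions without a test.

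**Figure D4:**
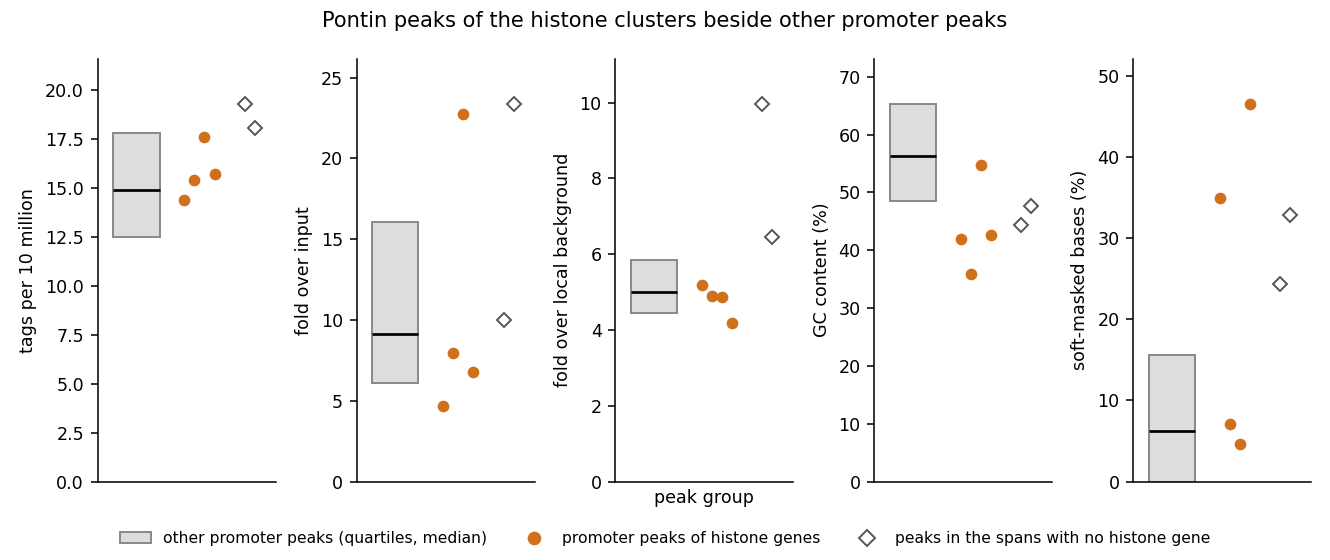
Tags per 10000000, fold over input, fold over the surrounding 10 kb, GC content and soft-masked share of the 4 promoter peaks of histone genes (dots) and the 2 other peaks in the cluster spans (diamonds); boxes give the quartiles and black lines the medians of 3209 other promoter peaks. The dots lie within the box for tags, and 3 of 4 lie below it for GC content.

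Histone promoters had the motifs that textbooks give for them, with or without a peak. Motifs were counted from 250 bases before to 50 after the gene start. CCAAT was present in 56 of 67 (39.0% of all protein-coding promoters), TATAAA in 37 of 67 (12.6%) and the octamer in 15 of 67 (1.57%), 7 H2A and 8 H2B genes. The H1 box was in 4 of 6 H1 promoters (6.40% of all), and the site II core was in 12 of 13 H4 promoters (9.60%). The promoters of a head-to-head pair share bases, so their counts are not separate.

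Among the 8 genes with a peak, CCAAT was in 8, TATAAA in 4 and the octamer in 4. The site II core GGTCCG, the E2F1 7-mer (7 of 67, 6 of them H4; 5.72% of all promoters) and the FOXO3a 7-mer (1 of 67, an H4 gene; 3.05%) were in 0 of the 8. In the 4 peaks over their whole width, CCAAT was in 2, AAACACA in 1 and GGTCCG in 1. TATAAA, the octamer and both 7-mers were in none. Among the 3209 promoter peaks of other protein-coding genes, CCAAT was in 39.2%, AAACACA in 8.48% and GGTCCG in 19.85%. TATAAA was in 12.99% of them, the octamer in 0.841%, the E2F1 7-mer in 11.3% and the FOXO3a 7-mer in 4.39%. With only 4 histone peaks, a count of 0 cannot show that a motif is rarer in them. These matches describe letters in the windows and do not show binding of any factor.

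Near-identical copies limit what a read can show in these clusters. In 10 of 67 histone promoters, over 50% of the 50-base stretches occurred more than once in GRCm38, against 5.93% of all promoters. None of the 10 had a peak. Hist1h2bq, Hist1h2ao, Hist1h4m, Hist1h4n, Hist1h2ap and Hist1h2br lie in the first group of Hist1. Hist2h3c2, Hist2h2aa2, Hist2h2aa1 and Hist2h3c1 lie in Hist2. Of the 8 promoters with a peak, all 8 had 0% such stretches. The same held for 44 of the 59 histone promoters without a peak and for 18754 of 21938 protein-coding promoters. Without the 10, a peak was found at 8 of 57 genes (14.04%, 7.29 to 25.3%). Whether reads from the repeated promoters were kept is not given in the sources used here, and the part of repeats in the absence of peaks was not tested.

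The peaks themselves were mostly single-copy. The share of repeated 50-base stretches was 15.5% in the Hist2h2ab peak, 6.25% in the peaks at Hist1h3e and Hist2h3b, and 0% in the peak between Hist1h3c and Hist1h2bb. The signal of the Hist2h2ab peak could include reads from other H2A genes in that part.

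Genes that serve the histone genes were read from lists of textbook function, chosen with earlier results of these data known. Of 19 genes for transcription and 3′ end processing of histone mRNA, 9 had a peak (47.4%, 27.3 to 68.3%), and of 19 histone chaperone and assembly genes, 8 had one (42.1%, 23.1 to 63.7%). Both intervals lay above the 17.1% of all genes and above the 21.0% and 21.6% of genes of like GC content. Given how the lists were chosen, this is a description and no test of enrichment. Of 11 replacement histone genes, most of which are also made outside S phase, 2 had a peak (18.2%, 5.14 to 47.7%), near the share of all genes. Some of these peaks also lay within 2.5 kb of another protein-coding gene and cannot be given to the listed gene alone, namely those at Cpsf3 (with Itgb1bp1), Ncbp2 (in an exon of 0610012G03Rik), Asf1a (with Mcm9), Ubn1 (with Glyr1), Ssrp1 (with P2rx3) and H2afz (with Dnajb14).

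In the first list the peaks were at Hinfp, the H4 site II factor, with 14 tags per 10000000, Casp8ap2, a protein of histone locus bodies, with 10.8, and Gon4l with 9.39. Further peaks were at Cpsf3, the 3′ end nuclease, with 18.3 and 47.35-fold over input, and its partner Cpsf2 with 14.2. The cap-binding partners Srrt and Ncbp2 had 13.7 and 16.1, the stem-loop exonuclease Eri1 had 12.5 and the helicase Upf1 had 23.6. The 10 without a peak included Npat, the S-phase activator of histone transcription, Slbp, which binds the stem-loop, and Lsm10 and Lsm11, subunits of the U7 snRNP. The others of the 10 were Coil, Zfp473, Sympk, Cstf2, Cstf3 and Ncbp1.

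In the second list the peaks were at Ssrp1, a subunit of FACT, with 24.6 tags per 10000000, Cabin1 and Ubn1 of the HIRA complex with 14.2 and 13.2, Hat1, which acetylates new H4, with 13, and its partner Rbbp7 with 11.6. The H3-H4 chaperone Asf1a had 10.6, the CAF-1 subunit Chaf1b 9.63 and Nap1l4 12. The 11 without a peak included members of the same complexes or families, namely Supt16 of FACT, Hira, Chaf1a of CAF-1, Asf1b and Rbbp4. The replacement genes were H2afz at 2208 bp with 15.9 and H2afy at 265 bp with 16.9. Over the 3 lists, 11 of the 19 peak centres lay nearer to a start than the 320 bp of the nearest histone promoter peak. Most promoter peaks of other protein-coding genes lay nearer as well, since 39.8% of them lay at 320 bp or farther.

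**Figure D5:**
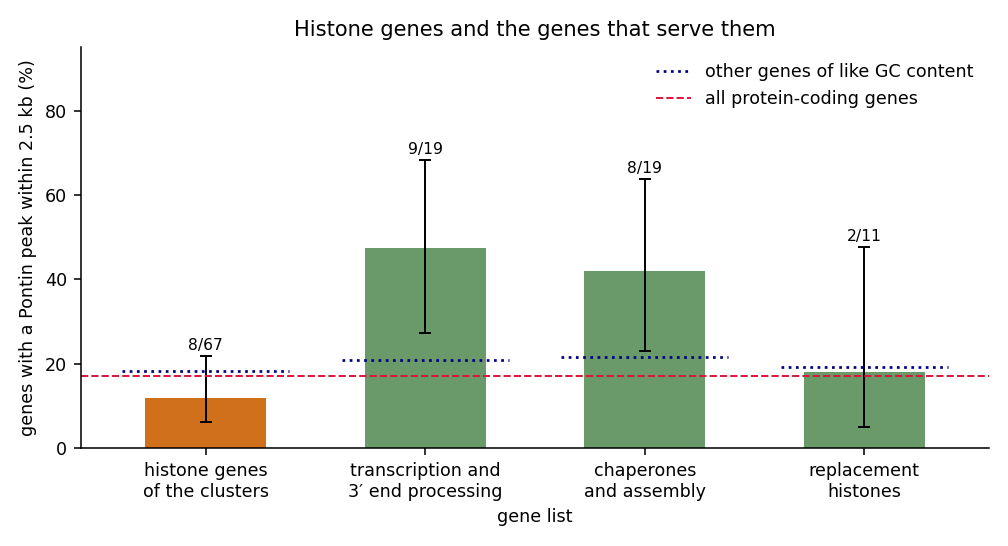
Share of genes whose TSS lay at most 2.5 kb from a methylated Pontin peak centre, in percent, for the 67 histone genes and 3 lists of genes that serve them; bars give the share, error bars the 95% Wilson interval and numbers the genes with a peak over all genes. The dashed line is the share of all protein-coding genes, 17.1%, and dotted lines are the shares of other genes of like GC content. The intervals of the first 2 lists of serving genes lie above both lines. The lists were chosen with earlier results of these data known, so this is a description and no test of enrichment.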

How the data were processed

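Methylated Pontin ChIP-seq peaks of 1 library, MEFs under glucose starvation, were analysed as deposited. The authors aligned paired-end reads to GRCm38 (mm10) with Bowtie2 and called peaks with HOMER 4.7.2 findPeaks against control input, at a false discovery rate of 0.001 with 4-fold minima against input and against the 10 kb around a peak, and Poisson p-values of at most 0.0001. The deposited signal was the normalised tag count (tags per 10000000), with a version scaled to the input depth. Folds against input and against the surrounding region were ratios made by the authors. The deposited score of a peak served only in an alternative limit, and the authors' focus ratio, a fraction, and p-values entered no result. In the list, 1 further column of values could not be assigned to a library and was not used.

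Distances ran from peak centres to every TSS of GENCODE vM21. GC content was taken over 1 kb at the gene start in bins of 2 percentage points, and other genes were weighted to the bins of the histone genes. Repeated stretches were counted on both strands of GRCm38, read from the RefSeq assembly. Tags in the library were recomputed from the tag count and the total of 20765512. Shares have 95% Wilson intervals, shares of 0 also the limit of 3 counts of the total, tags exact Poisson intervals and medians order-statistic intervals. No test over samples was possible with 1 library. Routines were tested on simulated data with Python 3.11.15, NumPy 2.4.6, SciPy 1.17.1 and Numba 0.67.0.

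The genes named were every histone gene with a peak, the nearest gene of each peak in a cluster span, the genes next to the 2.5 kb limit and the genes of the 3 lists with a peak; other genes were named after their values were seen. The histone genes and the lists were chosen with earlier results of these data known. Alternatives covered limits of 1 and 5 kb, peaks at least 8-fold over input or of at least the median score, the nearest TSS only, the gene start only, other GC windows and bins, and neighbouring genes. Added after seeing the data were genes of like GC content with at least 3 neighbours, and leaving out repeated promoters. A further promoter sequence is not reported here.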

Additional observations from a re-analysis of the deposited data

How the results depend on the processing

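Of 73 alternative values, 58 stayed within the spread or count limits set for them and 15 moved, none of them changing the side of a test, since no test was made. With peaks at least 8-fold over input, 3 histone genes (4.48%) and 1 distinct peak were left, H2B genes had a peak in 5.56% and H3 genes in 0% of cases, the cluster spans held 3 peaks, and genes of like GC content had a peak in 10.6% of cases. With each peak counted for the nearest TSS only, 4 histone genes (5.97%) and 0% of H2B genes had a peak. The share of genes of like GC content was 11.2% with GC content over 300 bases, 21.9% among genes with another start within 10 kb, 19.7% at a limit of 5 kb and, chosen after seeing the data, 19.5% among genes with at least 3 neighbours. Against the 11.9% of histone genes, GC content over 300 bases thus moved the level below that share, while the others at 2.5 kb with all peaks kept it above. Scaled to the input depth, the median tag count was 20.05 in place of 15.55. Leaving out the promoters of repeated sequence, also chosen after seeing the data, kept the 8 genes (14.04%). No paired analysis was possible because the result comes from 1 library and no test. The list holds only peaks that passed the authors' limits, so weaker binding at histone genes, and reads that were placed at several copies, could not be examined. The 4 promoter peaks held about 29.9 to 36.5 tags each, which limits the precision of any single signal.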
